A study of Arabidopsis thaliana with 30 samples.

Results

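The probe sets described here are 35 of the 22746 measured in seedlings of Arabidopsis thaliana, the ones whose level was lower after 3 h of far-red-enriched light in the wild type and fell little or not at all in pifq, a line that carries mutations in the transcription factor genes PIF1, PIF3, PIF4 and PIF5. They were chosen by the group means themselves: the mean after 3 h of far-red light minus the mean before it had to be at most -1.0 in the wild type and above -0.5 in pifq, on the log2 scale of the deposited values. GH3.9, RR16, VTC4, EXPA7, EXPA18 and genes with UGT or CYP symbols were left out by the rule, which removed 2 probe sets. Of the 35, 17 had exactly 1 locus in the annotation used here, 1 matched several genes and 17 had no gene there, and the last 2 kinds are given by probe set ID. 3 of the 17 loci had a gene symbol, which were CLE41, TBL45 and JAL33.

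Seedlings of pifq and of the Columbia wild type were measured whole on 30 arrays, in 10 groups of 3 replicates that the labels describe as grown, extracted and processed apart. All seeds were stratified for 5 days at 4 °C and grown at 21 °C for 2 days in white light of 19 µmol per m2 per s with a red to far-red ratio of 6.48, on medium without sucrose (WL0). White light enriched in far-red light, at a ratio of 0.006, was then given for 1, 3 or 24 h (FR1, FR3, FR24), and parallel seedlings stayed 24 h longer in white light (WL24). FR24 and WL24 seedlings were therefore of 1 age, but FR3 seedlings were 3 h older than WL0 seedlings, so that far-red light and elapsed time cannot be told apart at 3 h.

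Phytochromes are the red and far-red photoreceptors of plants. Their active form, made in red light, enters the nucleus and drives the breakdown of PIF proteins, which are basic helix-loop-helix transcription factors. Far-red-rich light, as under a leaf canopy, returns phytochrome to its inactive form, PIFs accumulate, and the shade avoidance response with its elongation of stems and petioles begins. PIFs are best known as activators of shade-induced genes, whereas the set described here holds transcripts that went down.

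Replicate arrays correlated with each other at 0.9945 to 0.9983 (Pearson's r over probe sets). Arrays of different groups correlated at 0.9577 to 0.9959, so that the ranges overlapped. Each genotype is represented by 1 line. PIF1, PIF3, PIF4 and PIF5 have no probe set named in the annotation used here, so the genotype labels were not checked on the mutated genes. The shoot marker list had 3 named genes (RCA, PSAN and PSBW), whose summed signal on the linear scale was 29657 to 32765 on pifq FR3 arrays against 25388 to 26965 on pifq WL0 arrays, and 28761 to 31679 on wild-type FR3 arrays against 24862 to 27328 on wild-type WL0 arrays. It was thus higher at 3 h in both genotypes without overlap, PSAN and PSBW being called higher and RCA not (0.03 in pifq and -0.03 in the wild type), and its part in the members' lower values at 3 h was not tested. The wider list of 28 photosystem and antenna genes did not move 1 way at 3 h. In pifq 7 were called higher and 6 lower (median -0.13), and in the wild type 5 higher and 7 lower (median -0.05). The root marker list had 2 named genes, EXPA7 and EXPA18, both root hair genes, and no seed marker was named. In whole seedlings, fewer cells of a type and less RNA per cell cannot be told apart.

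At 3 h the 35 members were lower by a median of 0.35 in pifq and 1.13 in the wild type. The change of each member, FR3 minus WL0, lay between -0.50 and 0.37 in pifq and between -1.77 and -1.001 in the wild type. These values chose the members and are a description without a test. All 3 FR3 arrays lay below all 3 WL0 arrays for 25 of the 35 members in pifq, against 20.2% of all probe sets, and for 35 of 35 in the wild type, against 24.0% of all probe sets. The pifq change was above 0 in 2 members and below 0 in 33, and its median was 29.0% of the wild-type change. For most members the pifq change was thus smaller and not absent, and dependence on PIFs is a name that rests on 1 mutant line.

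**Figure D1:**
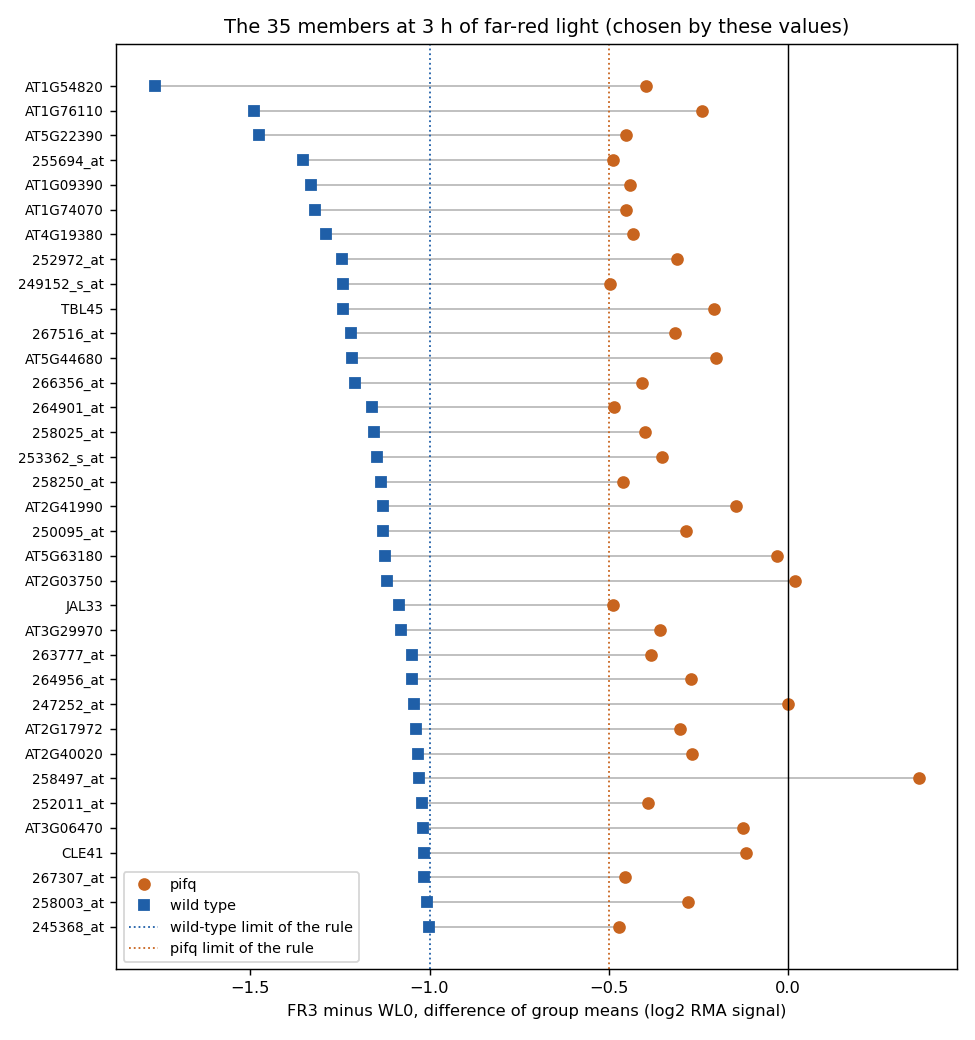
Change of each of the 35 members at 3 h, FR3 minus WL0 (difference of the means of 3 arrays, log2 signal), with pifq as circles and the wild type as squares; dotted lines mark the limits of the rule. The members were chosen by these values, so the gap between both genotypes is by construction; in pifq only AT2G03750 (0.02) and 258497_at (0.37) lie right of 0.

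Members near the limits show how narrow the rule is. Just inside the wild-type limit lay 258003_at at -1.01 and 245368_at at -1.001, and just outside it AT5G42310 at -0.999 and GT72B1 at -0.99. At the pifq limit, 249152_s_at (-0.498) and JAL33 (-0.49) were inside, while AT4G28080 (-0.504) and 260618_at (-0.52) were outside. In 12 members the pifq change was between -0.5 and -0.4, and in 14 the wild-type change was between -1.1 and -1.0. The other 401 probe sets with a wild-type fall of at least 1.0 changed by a median of -0.91 in pifq.

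Of the members with a signalling role, CLE41 encodes the precursor of the peptide TDIF, which phloem cells secrete and which promotes division of the vascular stem cells while holding back xylem formation through the receptor kinase PXY. In pifq, CLE41 had 7.81, 7.96 and 8.04 on FR3 arrays, against 8.08, 8.07 and 8.01 on WL0 arrays. Wild-type arrays had 7.33, 6.94 and 7.04 on FR3 arrays, against 8.05, 8.20 and 8.12 on WL0 arrays. The wild-type FR3 arrays were the low ones, and both pifq groups overlapped.

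AT1G54820, of the protein kinase superfamily, had the lowest wild-type change of the set at 3 h. In pifq it had 6.96, 7.09 and 7.32 on FR3 arrays, against 7.46, 7.53 and 7.58 on WL0 arrays. Wild-type arrays had 5.76, 6.04 and 5.86 on FR3 arrays, against 7.71, 7.66 and 7.59 on WL0 arrays. Neither genotype's groups overlapped, and the difference of means was -0.40 in pifq and -1.77 in the wild type.

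Among nuclear proteins, AT1G76110 combines an HMG box and an ARID domain, both of which bind DNA, and AT5G44680 belongs to a family of DNA glycosylases, enzymes that excise damaged bases. AT1G76110 had 7.28, 7.25 and 7.32 on pifq FR3 arrays against 7.44, 7.58 and 7.55 on pifq WL0 arrays. Its wild-type values were 6.15, 6.45 and 6.28 on FR3 arrays against 7.93, 7.70 and 7.71 on WL0 arrays. The groups did not overlap in either genotype, and the wild-type FR3 arrays lay lowest by a wide gap. AT5G44680 had 8.41, 8.48 and 8.55 on pifq FR3 arrays against 8.73, 8.67 and 8.64 on pifq WL0 arrays. Its wild-type values were 7.57, 7.57 and 7.45 on FR3 arrays against 8.72, 8.71 and 8.80 on WL0 arrays, again with no overlap in either genotype.

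5 members belong to families that act on the cell wall or on lipids. TBL45 belongs to the trichome birefringence-like family, several members of which acetylate wall polysaccharides. It had 8.88, 8.72 and 8.78 on pifq FR3 arrays against 8.87, 9.10 and 9.03 on pifq WL0 arrays, which overlapped. Its wild-type values were 7.91, 7.84 and 7.81 on FR3 arrays and 9.08, 9.23 and 8.97 on WL0 arrays, more than 1.0 apart. AT5G63180, of the pectin lyase superfamily, whose enzymes cut pectin, changed by -0.03 in pifq and -1.12 in the wild type. AT1G09390, of the GDSL esterase and lipase family, changed by -0.44 in pifq and -1.33 in the wild type. AT4G19380, of the long-chain fatty alcohol oxidases, and AT3G06470, of the ELO family of fatty acid elongases, changed by -0.43 and -0.13 in pifq and by -1.29 and -1.02 in the wild type.

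JAL33 is a jacalin-related lectin, a sugar-binding protein of a family linked to defence. It had 11.17, 11.34 and 11.26 on pifq FR3 arrays against 11.73, 11.74 and 11.76 on pifq WL0 arrays. The wild-type arrays had 10.73, 10.65 and 10.51 on FR3 arrays against 11.65, 11.78 and 11.71 on WL0 arrays. JAL33 was lower in both genotypes without overlap and passed the pifq limit by a narrow margin. AT2G03750, a sulfotransferase, which moves sulfate groups onto small molecules, had a change of 0.02 in pifq and -1.12 in the wild type. AT1G74070, a cyclophilin-type isomerase that helps proteins fold, had -0.45 in pifq and -1.32 in the wild type. The remaining named loci, AT5G22390, AT2G41990, AT3G29970, AT2G17972 and AT2G40020, changed by -0.45 to -0.15 in pifq and by -1.48 to -1.03 in the wild type.

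**Figure D2:**
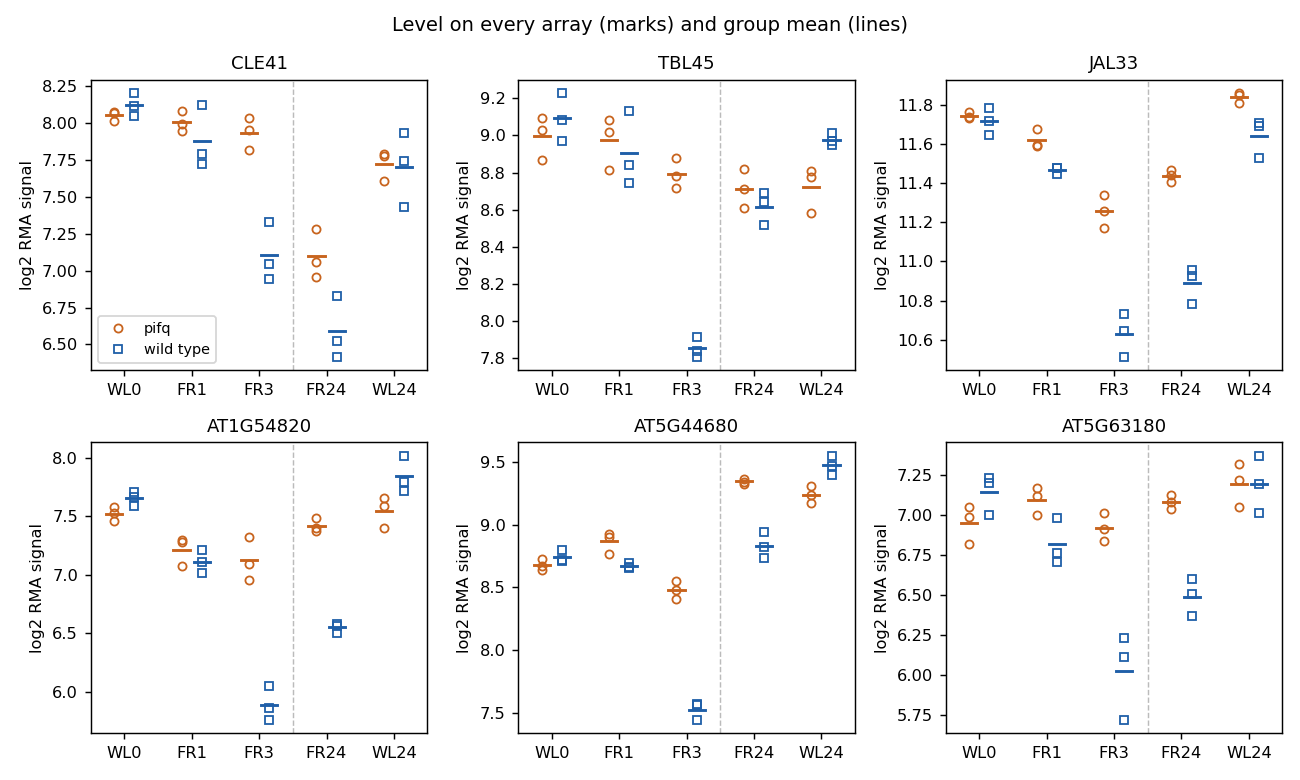
Level of 6 members on each of 30 arrays (marks, log2 signal) with group means (lines), pifq as circles and the wild type as squares, by light condition; axes differ between panels and do not start at 0. In each panel the wild-type FR3 arrays lie below the other arrays of WL0, FR1 and FR3. AT1G54820, AT5G44680, AT5G63180, CLE41 and JAL33 have wild-type FR24 arrays below all pifq FR24 arrays, while those of TBL45 overlap.

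Part of the fall was present after 1 h, in a share that differed widely between members. FR1 minus WL0 had a median of -0.10 in pifq and -0.27 in the wild type over the 35 members, against -0.01 and -0.03 over all probe sets. Since these values use the WL0 arrays of the rule, they are a description. High wild-type or low pifq WL0 values favour membership, which lowers FR1 minus WL0 in the wild type and raises it in pifq. In the wild type, AT1G54820 had 7.71, 7.66 and 7.59 at WL0, 7.11, 7.01 and 7.21 at FR1 and 5.76, 6.04 and 5.86 at FR3, stepping down without overlap. CLE41 had 8.05, 8.20 and 8.12 at WL0, 8.12, 7.79 and 7.72 at FR1 and 7.33, 6.94 and 7.04 at FR3, with the first and second groups overlapping. The share of the wild-type 3 h fall present at 1 h had a median of 23.7% and lay between -20.2% and 73.9%. It was 73.9% for AT4G19380, 71.6% for 249152_s_at and 55.6% for 263777_at. It was 5.8% for AT5G44680, 4.8% for AT2G40020 and 0.8% for AT1G76110. In the 401 other probe sets that fell in the wild type the medians at 1 h were -0.34 in pifq and -0.61 in the wild type.

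Between genotypes on FR1 arrays, which the rule did not use, 3 members were called lower in pifq than in the wild type, against 6.56% of all probe sets, and 3 higher, against 7.08%. Calls here and below are at an adjusted p under 0.05 in limma, a linear model with moderated variances fitted to all 30 arrays, adjusted by the Benjamini-Hochberg method over 22746 probe sets. Both shares of members were close to those of all probe sets and are not a result about the members. In the 401 other falling probe sets, 215 were called higher in pifq at FR1 and 4 lower. Without replicate 1 of wild-type FR1, 3 members in all were called in place of 6, and without its replicate 2 also 3. The count called lower was 1 without either of these or without any replicate of pifq FR1. Other settings gave more calls: 7 members in all without replicate 3 of wild-type FR1, and also more than 6 with array weights. Shares of all probe sets under these settings were not computed.

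At 24 h, on arrays that the rule did not use, far-red and white light were compared at equal age. In pifq 14 of the 35 were called lower, against 7.25% of all probe sets, and 2 higher, against 7.60%. In the wild type 22 were called lower, against 11.6% of all probe sets, and 2 higher, also against 11.6%. The median FR24 minus WL24 was -0.17 in pifq and -0.51 in the wild type. Of the 401 other falling probe sets, 61 were called lower and 94 higher in pifq, and 75 lower and 173 higher in the wild type. With only the compared groups in the fit, 9 members were called lower in pifq. EXPA7 and EXPA18, the root hair genes of the root marker list, moved the other way at 24 h. Their summed linear signal was 273.6 to 278.0 on pifq FR24 arrays against 204.7 to 233.2 on pifq WL24 arrays. In the wild type it was 240.3 to 289.9 on FR24 arrays against 142.2 to 170.1 on WL24 arrays. At 3 h it was 392.1 to 427.8 on pifq FR3 arrays against 631.0 to 780.5 on pifq WL0 arrays, and 293.2 to 328.8 on wild-type FR3 arrays against 587.7 to 650.4 on wild-type WL0 arrays. Its part in the falls of the members was not tested.

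**Figure D3:**
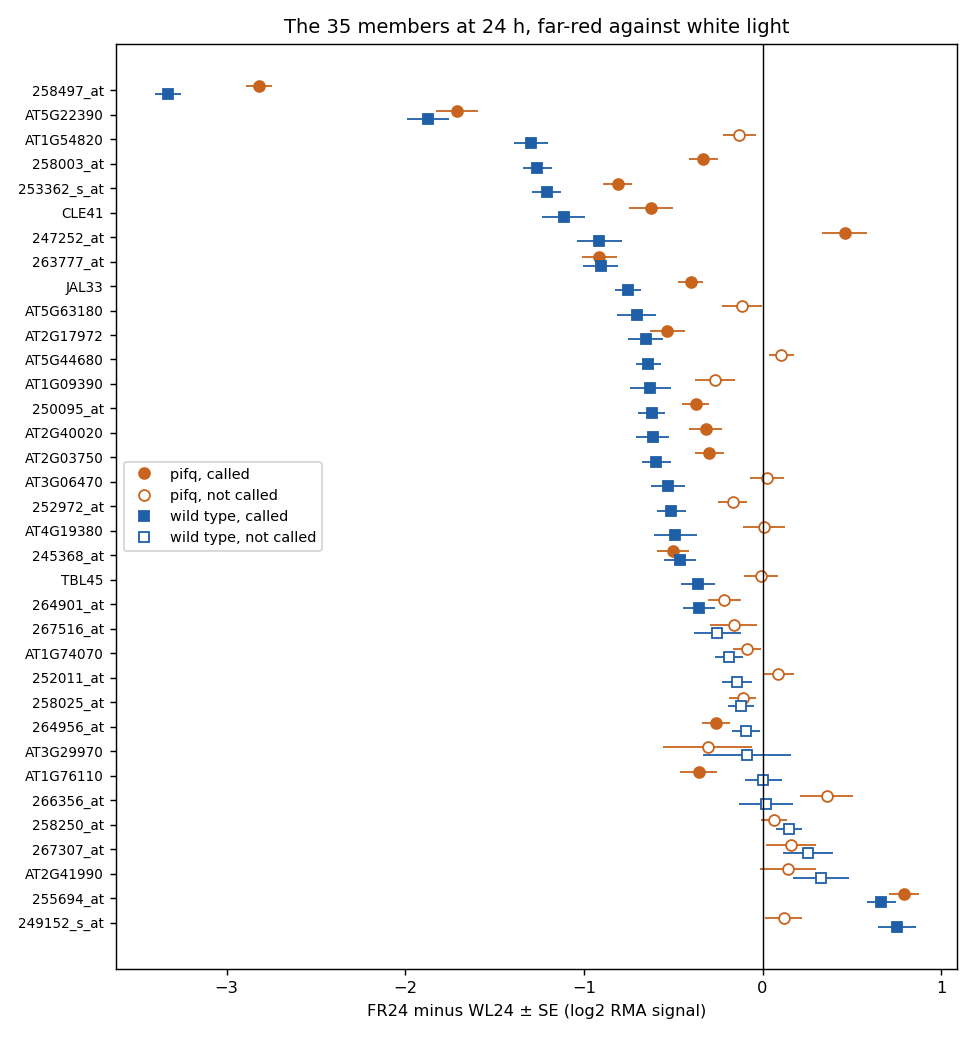
Change of each of the 35 members at 24 h, FR24 minus WL24 (log2 signal, limma estimate ± SE, n = 3 arrays per group), with pifq as circles and the wild type as squares; filled marks are called at an adjusted p under 0.05. 22 members are called lower in the wild type and 14 in pifq; 255694_at is called higher in both.

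CLE41 had 7.28, 7.06 and 6.96 on pifq FR24 arrays, against 7.79, 7.78 and 7.61 on pifq WL24 arrays. The wild-type values were 6.41, 6.52 and 6.83 on FR24 arrays, against 7.93, 7.74 and 7.43 on WL24 arrays. Neither genotype's groups overlapped. CLE41 fell by 0.62 ± 0.12 (SE) in pifq (limma adjusted p = 0.000511) and by 1.11 ± 0.12 in the wild type (limma adjusted p = 2.33e-08). The difference between genotypes in this response did not pass (limma adjusted p = 0.110). AT1G54820 had 7.48, 7.38 and 7.40 on pifq FR24 arrays against 7.66, 7.40 and 7.59 on pifq WL24 arrays, which overlapped and did not pass the test (-0.13 ± 0.09). The wild-type arrays had 6.50, 6.58 and 6.56 on FR24 arrays against 8.02, 7.71 and 7.79 on WL24 arrays, a fall of 1.29 ± 0.09 (limma adjusted p = 6.596e-12).

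The DNA glycosylase gene AT5G44680 had 9.33, 9.36 and 9.34 on pifq FR24 arrays against 9.17, 9.23 and 9.31 on pifq WL24 arrays, and the difference of 0.11 ± 0.07 did not pass the test. In the wild type it had 8.82, 8.94 and 8.73 on FR24 arrays against 9.55, 9.47 and 9.40 on WL24 arrays, and fell by 0.64 ± 0.07 (limma adjusted p = 2.535e-08). AT1G76110, the HMG-box and ARID gene with the second lowest wild-type change at 3 h, was not called in the wild type at 24 h. It had 8.51, 8.44 and 8.28 on wild-type FR24 arrays against 8.49, 8.35 and 8.37 on wild-type WL24 arrays, which overlapped. In pifq it fell by 0.36 (limma adjusted p under 0.05), a call lost without replicate 2 of pifq FR24 (limma adjusted p = 0.152) or replicate 2 of pifq WL24 (limma adjusted p = 0.161). The difference between genotypes in the 24 h response of AT1G76110 did not pass (limma adjusted p = 0.176).

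Of the wall and lipid members, TBL45 fell by 0.36 ± 0.10 in the wild type (limma adjusted p = 0.00502), and its pifq arrays overlapped, at 8.82, 8.61 and 8.71 on FR24 and 8.77, 8.58 and 8.81 on WL24 arrays. AT5G63180 had 7.04, 7.12 and 7.08 on pifq FR24 arrays against 7.22, 7.05 and 7.32 on pifq WL24 arrays, and -0.11 ± 0.11 did not pass the test. In the wild type AT5G63180 fell by 0.70 ± 0.11 (limma adjusted p = 1.187e-05). AT1G09390 had -0.27 ± 0.11 in pifq, not past the test, and fell by 0.63 ± 0.11 in the wild type. AT3G06470 and AT4G19380 fell by 0.53 ± 0.10 and by 0.49 ± 0.12 in the wild type. Neither was called in pifq, where AT3G06470 had 7.54, 7.54 and 7.44 on FR24 arrays against 7.38, 7.47 and 7.60 on WL24 arrays, and AT4G19380 had 5.32, 5.51 and 5.20 against 5.42, 5.40 and 5.19. For TBL45, AT1G09390 and AT4G19380 the difference between genotypes in the 24 h response did not pass (limma adjusted p = 0.148, 0.225 and 0.0975). At this time AT5G22390 had the lowest change of the named loci in both genotypes, and it fell by 1.71 ± 0.12 in pifq (limma adjusted p = 7.673e-12) and by 1.87 ± 0.12 in the wild type (limma adjusted p = 2.861e-13).

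JAL33 fell by 0.40 ± 0.07 in pifq (limma adjusted p = 0.000165) and by 0.75 ± 0.07 in the wild type (limma adjusted p = 1.323e-09). Relatives of the named members were looked up after the members had been seen. Of 4 JAL genes with a name, JAL33 included, 1 was called lower at 24 h in pifq and 3 in the wild type. JAL34 and JAL22 had -0.14 and -0.19 in pifq, which did not pass (limma adjusted p = 0.344 and 0.174), and fell by 0.47 ± 0.09 and by 0.42 ± 0.09 in the wild type (limma adjusted p = 0.000238 and 0.00094), while JAL23 was called in neither. Of 5 CLE genes, 2 were called lower in pifq and 3 in the wild type. CLE44, which encodes the same peptide as CLE41, had -0.25 in pifq, which did not pass (limma adjusted p = 0.118), and fell by 0.41 ± 0.11 in the wild type (limma adjusted p = 0.00414). CLE27 fell by 0.51 in pifq (limma adjusted p = 0.0257) and by 0.76 in the wild type (limma adjusted p = 0.000488), and its pifq call was lost without replicate 2 of pifq FR24 (limma adjusted p = 0.155) or replicate 1 of pifq WL24 (limma adjusted p = 0.199). CLE40 and CLE26 were called in neither genotype. The difference between genotypes in the 24 h response did not pass for JAL34, JAL22, CLE44 or CLE27, with limma adjusted p = 0.157, 0.367, 0.610 and 0.606. Of 22 TBL genes, TBL45 included, 2 were called lower and 2 higher in pifq, and 4 lower and 0 higher in the wild type. Beside the counts of these 3 families, 7.25% of all probe sets were called lower and 7.60% higher in pifq. In the wild type it was 11.6% in each direction. At 3 h CLE44 had 0.08 in pifq and -0.13 in the wild type, outside the rule. JAL22 had -0.81 in pifq and -1.36 in the wild type at 3 h, and JAL34 -0.39 and -0.73. Both were called lower in both genotypes at 3 h, JAL23 in neither, and all lay outside the rule.

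The largest fall of any member at 24 h belonged to 258497_at, which has no gene in the annotation and was singled out after its values were seen. It had 7.41, 7.38 and 7.55 on pifq FR24 arrays against 10.17, 10.36 and 10.26 on pifq WL24 arrays, and 7.19, 7.16 and 7.41 on wild-type FR24 arrays against 10.57, 10.61 and 10.57 on wild-type WL24 arrays. The FR24 mean was 7.04-fold lower than the WL24 mean in pifq and 10.1-fold lower in the wild type. At 3 h the same probe set was higher in FR3 than in WL0 in pifq, at 10.03, 10.08 and 10.02 against 9.70, 9.74 and 9.59, and lower in the wild type, at 8.96, 8.96 and 8.88 against 10.01, 9.95 and 9.92.

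The 24 h responses of both genotypes were compared directly, as the difference of FR24 minus WL24, pifq minus wild type. It was called positive for 9 members, against 2.22% of all probe sets, and negative for 1, against 1.53%. The median over the 35 members was 0.25. All 9 positive members had a called fall in the wild type. That fall enters the difference with its sign reversed, on the same arrays, so this is no separate observation. AT1G54820 had a difference of 1.17 ± 0.13 (limma adjusted p = 1.462e-06) and AT5G44680 one of 0.75 ± 0.10 (limma adjusted p = 1.095e-05), and both passed under every alternative setting tried. Of the 401 other falling probe sets, 18 were called positive and 39 negative. With only the 4 compared groups in the fit, 4 members were called positive.

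247252_at, chosen after its values were seen, differed the most. It had 8.59, 8.55 and 8.81 on pifq FR24 arrays against 8.25, 8.30 and 8.01 on pifq WL24 arrays, and 7.46, 7.56 and 7.44 on wild-type FR24 arrays against 8.52, 8.33 and 8.35 on wild-type WL24 arrays. It was called higher in far-red light in pifq and lower in the wild type, with a difference of responses of 1.37 ± 0.18 (limma adjusted p = 6.93e-06). The pifq call was lost without replicate 3 of pifq FR24 (0.38, limma adjusted p = 0.0727) or replicate 3 of pifq WL24 (0.37, limma adjusted p = 0.0701).

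Compared within 1 condition, 11 members were called higher in pifq than in the wild type at FR24, against 4.47% of all probe sets, and 1 lower, against 3.85%. AT1G54820 was higher by 0.87 ± 0.09 (limma adjusted p = 1.185e-07), AT5G63180 by 0.59 ± 0.11 (limma adjusted p = 0.000497) and AT1G09390 by 0.57 ± 0.11 (limma adjusted p = 0.00112). JAL33 was higher by 0.55 ± 0.07 (limma adjusted p = 2.654e-06) and AT5G44680 by 0.51 ± 0.07 (limma adjusted p = 6.521e-06). CLE41 was higher by 0.51 ± 0.12 (limma adjusted p = 0.0059). That call was lost without replicate 1 of wild-type FR24 (0.42, limma adjusted p = 0.0533) or replicate 1 of pifq FR24 (0.42, limma adjusted p = 0.0596). 8 members were both higher in pifq at FR24 and positive in the difference of responses. Both comparisons use the FR24 arrays, and the joint share of all probe sets was not computed, so this overlap is no added result.

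At WL24, in white light, 9 members were called lower in pifq than in the wild type, against 4.30% of all probe sets, and 1 higher, also against 4.30%. AT5G22390 was lower by 0.47, a call lost without replicate 3 of wild-type WL24 (limma adjusted p = 0.0559) or replicate 1 of pifq WL24 (limma adjusted p = 0.051). AT1G54820 was lower by 0.29 (limma adjusted p = 0.049) and AT5G44680 by 0.23 (limma adjusted p = 0.0317), calls lost under 7 and 5 of 11 alternatives. Their differences of 24 h responses, 1.17 and 0.75, thus include lower pifq values in white light as well as higher ones at FR24. Of the 401 other falling probe sets, 113 were called higher in pifq at WL24 and 10 lower. The count of lower members was 3 with only the compared groups in the fit and 5 without replicate 3 of wild-type WL24.

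**Figure D4:**
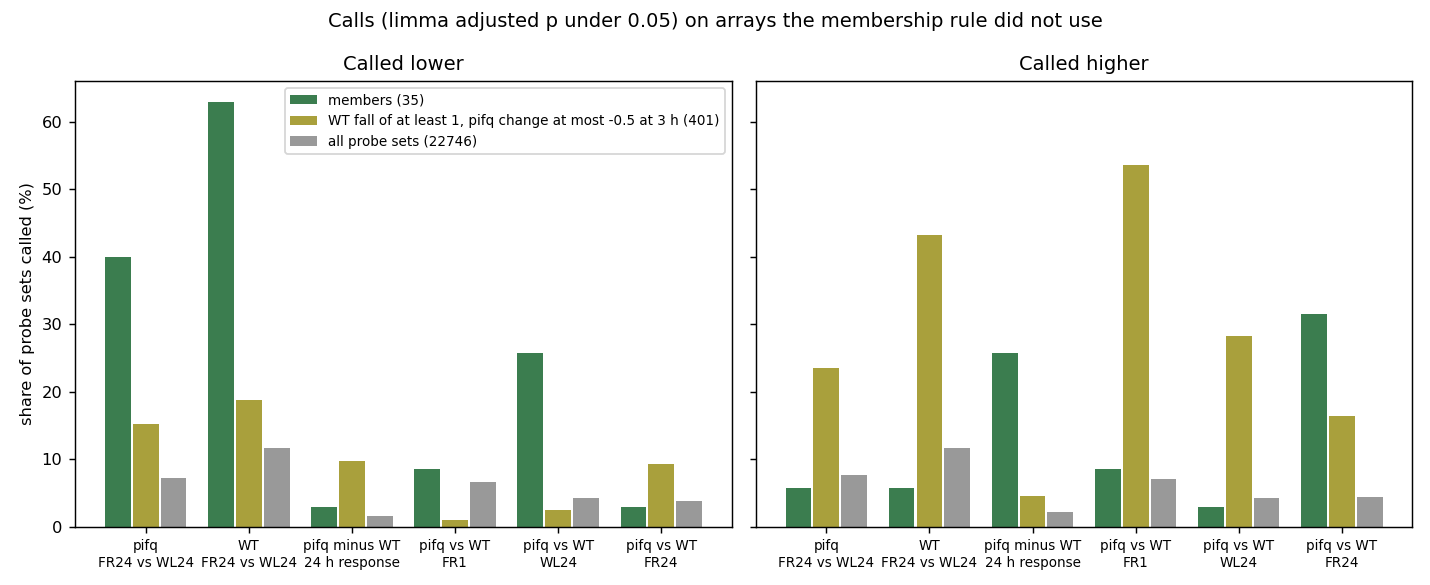
Share of probe sets called lower (left) or higher (right) at a limma adjusted p under 0.05 in the 6 comparisons of arrays that the rule did not use, for the 35 members, the 401 other probe sets with a wild-type fall of at least 1.0 at 3 h, and all 22746. Members are called lower most often in FR24 against WL24 of the wild type, and their shares at FR1 lie near those of all probe sets; the comparisons share arrays with one another.

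The change in white light over time, WL24 minus WL0, uses arrays of the rule and was not tested. It had a median of 0.17 in pifq and 0.05 in the wild type over the 35 members, near the 0.06 and 0.02 over all probe sets, and was below 0 in 14 members in pifq and 17 in the wild type. Over the 401 other falling probe sets the median was -1.15 in pifq and -1.24 in the wild type, and 359 were below 0 in pifq and 348 in the wild type. At WL0 itself, pifq minus wild type had a median of -0.12 over the members and was below 0 in 28 of 35, against 12560 of all 22746 probe sets and 119 of the 401. The rule uses both WL0 groups, and low pifq or high wild-type values there favour membership, so this is no separate observation. None of the 17 member loci was next to another on a chromosome.

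Genes of 18 lists for shade and phytochrome signalling, hormones, cell walls, pigments, photosynthesis and cell type markers gave 107 measured genes with a name, and 0 of them was a member. At the overall share of 35 in 22746 probe sets, under 1 member would fall among 107 genes. The 17 members without a gene in the annotation could not match, and only 15 of the lists had any named gene. EXPA7, EXPA18, RR16, GH3.9 and the UGT genes among the 107 were left out by the rule and could not be members either. Of the 107, 35 were called lower at 3 h in pifq, against 15.3% of all probe sets, and 25 higher, against 14.6%. In the wild type 41 were called lower, against 18.0%, and 26 higher, against 18.1%. The phytochrome and shade list had 4 named genes, of which FHL, HAT2 and IAA29 rose and HYH fell in both genotypes, and 6 of 7 flavonoid genes fell in both. 14 had a wild-type change of at most -1.0, and of these only GH3.9, which the rule leaves out, had a pifq change above -0.5. XTH32, a xyloglucan-modifying wall enzyme, fell by 1.08 in pifq and 1.54 in the wild type, and UGT78D1, a flavonol glycosyltransferase, by 1.32 in pifq and by 1.41 in the wild type, all at a limma adjusted p under 0.05.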

How the data were processed

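The deposited values are log2 expression values that the authors computed with RMA, as the submitters' processing notes state without a version. Values lay between 2.42 and 14.16 and array medians between 5.55 and 5.64. RMA equalises the arrays' distributions, so a shift of most transcripts could not be seen. Precision is limited by there being 3 arrays in each group. 64 control probe sets were left out of 22810. Probe sets were named through the platform annotation and the RefSeq gene table, which gave 13436 exactly 1 locus.

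One mean per group was fitted to 30 arrays with limma 3.58.1 in R 4.3.3, with two-sided tests and Benjamini-Hochberg adjustment over 22746 probe sets. The fit was tested on simulated data. For the members, contrasts that use WL0 or FR3 arrays chose them or share arrays with the rule, and are described without a test; for genes of the lists, which are not members, calls in FR3 minus WL0 are from the same fit. Alternatives were a replicate block, a filter at a mean log2 of 5, only the compared groups, array weights, an intensity trend with robust moderation, and each array left out.

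The members, lists and tests were chosen with earlier results of these data known. Named were, among members with 1 locus, those with a symbol, the 10 lowest in the wild type at 3 h, up to 6 called members in each direction of a comparison, up to 2 genes of each list, and the probe sets next to the limits. Protein families of loci without a symbol are background knowledge and not from the annotation. Deviations of arrays with 1 replicate number correlated at -0.13 to 0.19 over 15 pairs, 1 of them above 0.1, and the numbers were not taken to pair samples. No pair held a WL0 or FR3 array, and arrays with unlike numbers were not compared, so these values cannot show whether samples were paired.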

Additional observations from a re-analysis of the deposited data

Results flagged for a closer look

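10 members had a 24 h response, FR24 minus WL24, that differed between pifq and the wild type by the test of the difference itself in limma. The differences, pifq minus wild type, were 1.37 for 247252_at, 1.17 for AT1G54820, 0.93 for 258003_at and 0.75 for AT5G44680. 249152_s_at had the only negative one, -0.63. These 5 passed under every alternative setting tried. 258497_at had 0.51, which did not pass with only the compared groups in the fit (limma adjusted p = 0.0542).

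AT3G06470 had 0.56, which did not pass without wild-type FR24 replicate 2 (limma adjusted p = 0.0584) or replicate 3 (limma adjusted p = 0.0551), or with only the compared groups (limma adjusted p = 0.0678). AT5G63180 had 0.59, which did not pass under 6 alternatives, with a highest limma adjusted p of 0.0806; 4 of these left out wild-type FR24 replicate 3, wild-type WL24 replicate 3, pifq FR24 replicate 2 or pifq WL24 replicate 2. JAL33 had 0.35, which did not pass without any 1 of 10 of the 12 arrays compared. 253362_s_at, which matches several genes, had 0.40 and did not pass under 10 alternatives. Groups of 3 arrays are too small for a check of single arrays that stand apart.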

How the results depend on the processing

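Of 86 called values of single members or relatives, 57 were called under every alternative tried, 29 were lost under at least 1, and 0 changed sign. Shares of all probe sets called were not computed under the alternatives, so member counts there, here and above, are set only against the main fit. With only the compared groups in the fit, 9 members were called lower at 24 h in pifq, 5 differed in their 24 h response (4 of them positive), 4 differed at WL24 (3 of them lower in pifq), and 0 were lower in pifq at FR24. With array weights 10 members differed at FR1, 6 of them higher in pifq, and 2 were lower in pifq at FR24. The filter at a mean of 5 gave 2 lower at FR24 and 2 higher at WL24, and the intensity trend with robust moderation also 2 higher at WL24. Leaving out 1 array at a time gave 1 to 2 members higher at 24 h in pifq, 3 to 7 called at FR1 with 1 to 3 lower and 2 to 4 higher, 6 to 8 called at WL24 with 5 to 7 lower and 1 to 2 higher, 0 to 3 lower at FR24 with 8 to 11 higher, and 6 to 8 positive differences of responses.

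A wild-type limit of -1.2 left 13 members and a pifq limit of -0.3 left 14. Group medians gave 49 members, 31 of them shared with the 35, and leaving out 1 replicate number gave 34 to 52. The replicate block changed 1 call, that of AT1G54820 at WL24 (-0.29, limma adjusted p = 0.0531), and no other. The planned search for promoter motifs was not run, since no promoter sequence was used here. Dim members such as AT4G19380 and AT3G29970 are limited by the compression of low signals.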
